A study of Rattus norvegicus with 24 samples.

Results

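The miRNAs described here were 9 mature miRNAs of the imprinted Dlk1-Dio3 region, chosen by name from the 719 rat miRNAs on the array. They were rno-miR-127-3p, rno-miR-434-3p, rno-miR-370-3p, rno-miR-379-5p, rno-miR-411-5p, rno-miR-495, rno-miR-382-5p, rno-miR-134-5p and rno-miR-541-5p. The rule is by name and used no measured value, but the choice was made with earlier results of these data known. Levels came from lung RNA of 24 Fischer-344 rats of both sexes, 7 to 8 weeks old, with 1 single-colour Agilent miRNA array per rat. Control rats breathed filtered clean air, and the exposed rats inhaled hexanal, a volatile aldehyde, at doses labelled 600, 1000 and 1500 ppm for 4 h a day on 5 days a week over 5 weeks. Each of the 4 groups held 6 rats, 3 males and 3 females. The protocol text gives the same dose figures in milligrams per cubic metre, so ppm serves here as the name of a group. The rats carried no stated genetic change, and each array measured bulk lung tissue, in which fewer cells of a type and less RNA per cell cannot be told apart.

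The Dlk1-Dio3 region is one of the imprinted domains of the mammalian genome. Its protein-coding genes Dlk1, Rtl1 and Dio3 are read from the paternal chromosome, whereas the long non-coding RNA Meg3, a transcript antisense to Rtl1 and a long run of small nucleolar RNAs and miRNAs are read from the maternal chromosome, in the same direction and under a shared imprinting control region. These miRNAs are abundant in the embryo, the placenta and the adult brain and low in most other adult tissues. A miRNA recognises its target mRNAs mainly through its seed, bases 2 to 8 counted from the 5′ end.

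The mature sequences are shown because all 9 miRNAs lie on the same strand of the same region and yet differ in the seed. Their sets of matching targets therefore differ at least in part. Each miRNA has its own probes on the array. The sequences below are RefSeq sequences of the assembly GRCr8, which held all 9. They stand in the order of their place in the region, written 5′ to 3′ with the seed in capitals.
rno-miR-127-3p: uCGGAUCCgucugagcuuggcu
rno-miR-434-3p: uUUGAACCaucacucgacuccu
rno-miR-370-3p: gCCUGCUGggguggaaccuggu
rno-miR-379-5p: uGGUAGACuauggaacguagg
rno-miR-411-5p: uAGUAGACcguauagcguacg
rno-miR-495: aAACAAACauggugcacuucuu
rno-miR-382-5p: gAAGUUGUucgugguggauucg
rno-miR-134-5p: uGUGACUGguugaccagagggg
rno-miR-541-5p: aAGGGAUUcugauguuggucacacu
No 2 of the 9 had the same 7-base seed. miR-379-5p and miR-411-5p came closest, sharing the 6 bases from position 3 to position 8.

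All 9 lay on the plus strand of chromosome 6 in GRCr8. miR-127-3p (chr6:134328510-134328531) and miR-434-3p (chr6:134330451-134330472) lay within the span of Rtl1, the gene of a retrotransposon-derived protein needed in the placenta. miR-370-3p (chr6:134354538-134354559), miR-379-5p (chr6:134543460-134543480), miR-411-5p (chr6:134544604-134544624) and miR-495 (chr6:134554103-134554124) lay within that of the long non-coding RNA gene LOC102555254. miR-382-5p (chr6:134569956-134569977), miR-134-5p (chr6:134570320-134570341) and miR-541-5p (chr6:134578434-134578458) lay within that of LOC120103623, also a long non-coding RNA gene. Between the mature miR-382-5p and miR-134-5p there were 342 bases. RefSeq placed 59 miRNA genes between Dlk1 and Dio3, and the array held 91 mature arms of them on the list used here.

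Most of the region was at the limit of detection in lung. Of the 91 arms, 71 were not above background on any array, 10 were above it on 1 to 5 arrays and 10 on at least 6, the minimum for testing. Over the whole array 283 of 719 miRNAs reached that minimum. Between 221 and 306 miRNAs were above background per array, and no spot was saturated. miR-127-3p and miR-370-3p were above background on 22 of 24 arrays each, miR-134-5p on 17 and miR-434-3p on 6, so these 4 were tested. miR-379-5p was above it on 2 arrays, miR-411-5p on 1, and miR-382-5p, miR-495 and miR-541-5p on none, so for these 5 a level has only an upper bound on most or all arrays. The scanner software's own call for a whole miRNA, which sums its probes, was more permissive and counted miR-127-3p on 23 arrays, miR-134-5p on 22, miR-370-3p on 24, miR-434-3p on 17, miR-379-5p on 8, miR-382-5p and miR-411-5p on 2 each, miR-541-5p on 1 and miR-495 on 0. The rat with the most of the 9 above background was control male 2, with 6, and the other rats had from 1 to 4.

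Lung identity and array quality were checked beside these levels. The epithelial list (5 miRNAs, miR-200 family), the ciliated cell list (3) and the smooth muscle list (2) were above background on all 24 arrays. Of the 5 neuronal miRNAs, miR-128-3p and miR-7a-5p were above it on all 24, and the defining miR-124-3p and both arms of miR-9a on 0. Of the 7 striated muscle miRNAs 4 were tested, miR-133b-3p and miR-499-5p on all 24 arrays, miR-133a-3p on 21 and miR-1-3p on 18, while miR-206-3p, miR-208a-3p and miR-208b-3p were above background on 0. The endothelial miR-126 was on the array under other names than those listed, and once looked up, after the data were seen, miR-126a-3p and miR-126a-5p were above background on all 24. The arrays lay on 3 slides that overlapped with sex and dose. Slide 1 held only males (3 controls, 3 at 600 ppm, 2 at 1000 ppm), slide 3 held only females (2 at 600 ppm, 3 at 1000 ppm, 3 at 1500 ppm), and slide 2 was mixed, with females from the control group (3) and the 600 ppm group (1) beside males from the 1500 ppm group (3) and the 1000 ppm group (1).

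Some miRNAs of the region varied together from rat to rat, miR-134-5p and miR-370-3p varied together in another pattern, and many arms showed neither closely. The pattern of miR-134-5p and miR-370-3p was not particular to the region, as miRNAs outside it followed these 2 more closely. The first set was led by miR-127-3p, whose known targets include Rtl1 on the opposite strand, and by its neighbour miR-434-3p. On the log2 scale the 2 had a Pearson correlation of 0.88 over 24 rats (0.86 after centring within slide, and 0.96, 0.89 and 0.91 within slides 1, 2 and 3, 8 rats each). miR-136-5p, whose gene lies next to that of miR-434 within the Rtl1 span, chosen for display after its values were seen, had a correlation of 0.97 with miR-127-3p and of 0.93 with miR-434-3p. The rats share slides, the scaling and the floor, and these correlations are descriptions. The 2 probes of miR-127-3p correlated at 0.98 with each other, and those of miR-434-3p at 0.97, before any floor was set. On the floored log2 scale the values were 0.91 and 0.88. The tested log2 levels of miR-434-3p and miR-136-5p each rest on 1 probe, because the other was above background on too few arrays.

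The untested members were then read below the floor, as scaled intensities that can be negative after background correction. This reading was chosen after seeing the data, and each value is the mean over the probes of a miRNA. miR-379-5p had a median of 3.78 over the 24 rats and a correlation of 0.971 with miR-127-3p (0.973 centred within slide). miR-411-5p, its near neighbour with the related seed, had a median of 2.47 and a correlation of 0.933 (0.948 centred). miR-382-5p, above background on no array, had a median of 2.83 and a correlation of 0.928 (0.925 centred). On this scale miR-434-3p had a correlation of 0.963. Without the 2 rats farthest from the median of miR-127-3p, 1500 ppm female 37 and control male 2, these correlations were 0.955 for miR-379-5p, 0.931 for miR-411-5p, 0.883 for miR-382-5p and 0.979 for miR-434-3p. miR-541-5p, with a median of 0.179, had a weaker relation that leaned more on those rats (0.696, and 0.507 without them). Centred within slide its correlation was 0.842. miR-495, with a median of 0.0463 and 2 probes that correlated at only 0.20 with each other, had 0.405 and 0.25 (0.44 centred).

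A few rats recurred at the top of this set. The scaled intensity of miR-127-3p before the floor ran from 3.36 to 61.4 with a median of 21.6, and its highest values were 61.4 in 1500 ppm female 37, 55.3 in control male 2 and 55 in 600 ppm female 27. miR-379-5p had its highest values in the same order of rats, 11.9, 11.7 and 10.4. miR-382-5p had 7.16 in control male 2, 6.77 in 1500 ppm female 37 and 6.72 in 600 ppm female 27. miR-411-5p had 9.53 in control male 2, 9.34 in 1500 ppm female 37 and 5.49 in 600 ppm female 27. These 3 rats came from 3 different dose groups, 2 slides and both sexes. miR-434-3p was highest in 1500 ppm female 37 (27.5), 600 ppm female 27 (20) and 1500 ppm female 38 (16.4), with control male 2 next (15.7).

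**Figure D1:**
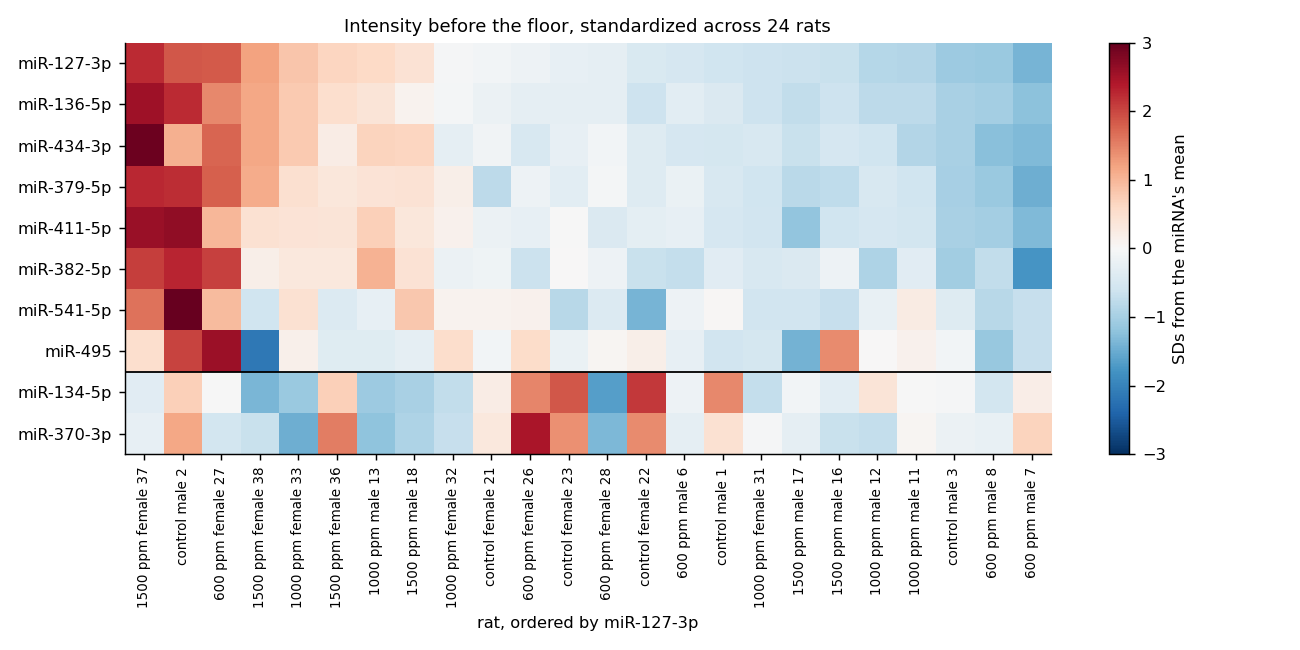
Scaled intensity before the floor of the 9 miRNAs and of miR-136-5p (rows) in each of the 24 rats (columns, ordered by miR-127-3p), as the number of SDs from the mean of each row. In miR-127-3p, miR-136-5p, miR-434-3p, miR-379-5p, miR-411-5p and miR-382-5p, 1500 ppm female 37, control male 2 and 600 ppm female 27 are among the 4 highest rats, miR-495 follows less closely, and miR-134-5p and miR-370-3p below the line are high in other rats.

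miR-134-5p and miR-370-3p made up the pair. miR-134-5p is known for its role in dendrites of neurons, where it represses the kinase Limk1. Its log2 level had a correlation of 0.85 with that of miR-370-3p over 24 rats (0.84 centred within slide, and 0.51, 0.96 and 0.82 within slides 1, 2 and 3). With miR-127-3p the same values were -0.16 for miR-134-5p and -0.14 for miR-370-3p (0.09 and 0.06 centred). miR-134-5p was highest in control females 22 and 23, with scaled intensities of 25.5 and 24.1, and miR-370-3p in 600 ppm female 26 (39.4) and 1500 ppm female 36 (33.8). In contrast, miR-382-5p, whose mature sequence ends 342 bases before that of miR-134-5p, had a correlation of 0.928 with miR-127-3p and of -0.138 with miR-134-5p.

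The first pattern was found across the region and outside it in no miRNA as closely. Among the 90 other arms of the list, 15 had a correlation above 0.8 with miR-127-3p before the floor, and 14 of these also had it after centring within slide. Of the 15, 5 were above background on no array. Among the 628 miRNAs of the array outside the list there were 0, and the highest was 0.612, for miR-378b. The 15 included miR-154-5p (0.986), miR-337-3p (0.96), miR-300-3p (0.943), miR-376a-3p (0.931) and miR-381-3p (0.926), named here after their values were seen, which lay from 128.7 to 381.9 kb beyond the start of Dlk1. The median correlation was 0.132 over the 90 arms and -0.103 over the 628. Arms of the list that were clearly above background on all 24 arrays did not show it, with -0.159 for miR-494-3p, 0.212 for miR-487b-3p and -0.329 for miR-770-3p.

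**Figure D2:**
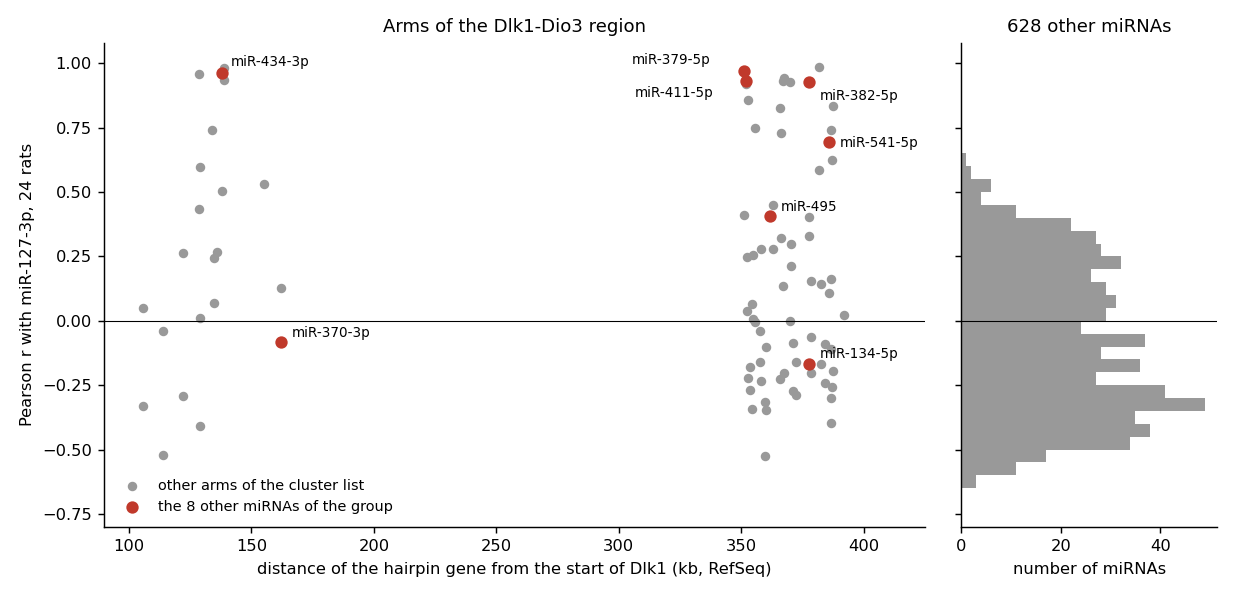
Pearson correlation with miR-127-3p over 24 rats, from scaled intensities before the floor, for 90 other arms of the Dlk1-Dio3 region by the distance of their hairpin gene from the start of Dlk1 (left, in kb) and for 628 other miRNAs as a histogram (right). 15 arms of the region are above 0.8, between 128.7 and 387.3 kb, and the other miRNAs end at 0.612.

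Outside the region the miRNAs most like the mean of the 4 tested members, over 24 rats, were miR-6216 (0.73), miR-327 (0.72), miR-3564 (0.69), miR-125a-3p (0.68) and miR-3573-3p (0.66), and the same 5 came first after centring within slide. That mean mixed the 2 patterns. Taken alone, miR-134-5p was most like miR-328a-5p (0.92) and miR-211-3p (0.88), and miR-370-3p also was most like miR-328a-5p (0.89). Each of these values was above the correlation of miR-134-5p with miR-370-3p. miR-127-3p was most like miR-10a-5p (0.62), a value below those within its own set. The summed level of the 4 leukocyte miRNAs tested had a correlation of 0.49 with miR-127-3p, and 0.19 once centred within slide. The number of miRNAs above background on an array had -0.52, and -0.26 centred. For the epithelial, ciliated, smooth muscle, mesenchymal, red blood cell, striated muscle and neuronal lists the values with miR-127-3p lay between -0.22 and 0.32. miR-126a-3p and miR-126a-5p had -0.15 and -0.37. With miR-134-5p the lists lay between -0.32 and 0.036, and with miR-370-3p between -0.50, for the mesenchymal list, and 0.12, for the leukocyte list, which reached 0.39 and 0.41 once centred within slide. The summed log2 level of the ciliated list averaged 10.86 in control rats and 11.07, 11.39 and 11.11 at 600, 1000 and 1500 ppm. That of the striated muscle list averaged 7.92, 8.31, 9.03 and 8.33, and that of the mesenchymal list 10.97, 11.02, 11.08 and 11.00. These lists were highest at 1000 ppm, where miR-134-5p and miR-370-3p had their lowest means. The epithelial, smooth muscle, leukocyte, red blood cell and neuronal lists were highest in other groups. The ranges of the ciliated, striated muscle and mesenchymal lists overlapped between all groups. The part of cell composition in these patterns and in the dose differences was not tested.

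The comparison of each exposed group with clean air asked whether hexanal changed these miRNAs. With limma and Benjamini-Hochberg adjustment over 283 miRNAs, 0 of the 4 tested members were called at any of the 3 doses, where 0% of all miRNAs were. At an unadjusted p below 0.05 there was 1 of 4 at 600 ppm (1.77% of all tested, 0.707% lower than control), 2 of 4 at 1000 ppm (6.01%, 3.53% lower) and 1 of 4 at 1500 ppm (9.19%, 5.3% lower). These were miR-134-5p at each dose and miR-370-3p at 1000 ppm, with means below control.

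miR-134-5p had the smallest p of all 283 miRNAs at 600 and at 1000 ppm. Its log2 scaled intensity ran from 3.90 over a median of 4.34 to 4.63 in the 6 control rats, from 3.50 over 3.86 to 4.47 at 600 ppm, from 3.53 over 3.63 to 4.08 at 1000 ppm and from 3.52 over 3.77 to 4.20 at 1500 ppm. The control rats held the highest values, control females 22 and 23 foremost, and each exposed group overlapped with them. The group mean was below control in all 3 groups, and 5, 6 and 6 of 6 rats lay below the control mean. The log2 difference was -0.40 ± 0.15 (SE, n = 6) at 600 ppm (limma, adjusted p = 0.996), -0.57 ± 0.15 at 1000 ppm (0.232) and -0.50 ± 0.15 at 1500 ppm (0.185), and none passed the threshold. The 95% intervals ran from -0.72 to -0.08, from -0.89 to -0.25 and from -0.82 to -0.19, before any adjustment.

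Fitted with slide as a block, these differences were -0.34, -0.49 and -0.45 (limma, adjusted p of 0.588, 0.496 and 0.355). Within the males of slide 1, the only place where control and exposed rats of the same sex shared a slide in groups of at least 2, miR-134-5p differed by -0.35 ± 0.15 at 600 ppm and by -0.20 ± 0.17 at 1000 ppm (limma, adjusted p of 0.671 and 0.978, 3 control rats, 3 and 2 exposed). Among the females of slide 3, 1000 ppm minus 600 ppm was -0.08 ± 0.20. Females at 1500 ppm there were higher by 0.14 ± 0.20 than those at 600 ppm and by 0.22 ± 0.18 than those at 1000 ppm. None of these slide 3 differences of miR-134-5p passed the threshold. The level lies close to the floor, and its size depended on the measure. The total gene signal gave -1.08 at 1000 ppm and the deposited table -1.26 at 1500 ppm for miR-134-5p, and no alternative passed the threshold (limma, lowest adjusted p = 0.103, at 1000 ppm with control male 3 left out). Under a normexp background correction the differences shrank or turned. Normexp alone gave 0.27 for both miR-134-5p and miR-370-3p at 600 ppm. The median spot was then at 733 on 1 array of that group, 600 ppm female 26. It was at 119 on that of control male 3 and at most at 66.3 elsewhere. With spots of extreme background replaced, a setting chosen after seeing the data, the differences at 600, 1000 and 1500 ppm were -0.08, -0.17 and 0.03 for miR-134-5p and -0.04, -0.20 and 0.05 for miR-370-3p.

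miR-370-3p followed the same order at a smaller size. Its log2 level ran from 4.53 over a median of 4.86 to 5.04 in control rats, from 3.97 over 4.49 to 5.29 at 600 ppm, from 3.91 over 4.30 to 4.61 at 1000 ppm and from 4.19 over 4.39 to 5.06 at 1500 ppm. The groups overlapped, and the highest single value belonged to an exposed rat, 600 ppm female 26. The differences were -0.27 ± 0.18, -0.54 ± 0.18 and -0.37 ± 0.18 (SE, n = 6, limma, adjusted p of 0.996, 0.337 and 0.498). Under the slide block they were -0.23, -0.49 and -0.32, also not past the threshold. Within the males of slide 1, miR-370-3p differed from control by -0.15 ± 0.15 at 600 ppm and by -0.29 ± 0.17 at 1000 ppm. Among the females of slide 3, 1000 ppm minus 600 ppm was 0.11 ± 0.28. Females at 1500 ppm there were higher by 0.46 ± 0.28 than those at 600 ppm and by 0.35 ± 0.25 than those at 1000 ppm. None of these within-slide differences passed the threshold.

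miR-127-3p had the widest spread between rats of a group among the 4, with SDs of 0.68 to 0.81. Its log2 level ran from 3.51 over a median of 4.24 to 5.75 in control rats, from 3.50 over 4.22 to 5.71 at 600 ppm, from 3.65 over 4.25 to 5.20 at 1000 ppm and from 3.95 over 4.96 to 5.86 at 1500 ppm. Each group held low and high rats and all overlapped. The differences were -0.10 ± 0.41, -0.01 ± 0.41 and 0.49 ± 0.41 (SE, n = 6, limma, adjusted p of 0.996, 0.991 and 0.613), and the interval at 1500 ppm ran from -0.37 to 1.34. miR-127-3p averaged 5.01 ± 0.68 (SD, n = 8) on slide 3, which held the 3 females at 1500 ppm and no male, 3.97 ± 0.75 on slide 1 and 4.40 ± 0.40 on slide 2. Under the slide block the value at 1500 ppm was -0.05 (adjusted p = 0.976). For 1500 ppm against control, slide, sex and dose cannot be told apart, because within 1 sex these groups shared no slide. Leaving out 1500 ppm female 37 gave 0.28, and leaving out control male 2 gave 0.76. Among the females of slide 3, 1500 ppm minus 1000 ppm was 0.87 ± 0.46 (SE) for miR-127-3p. There 1500 ppm minus 600 ppm was 0.42 ± 0.52, and 1000 ppm minus 600 ppm was -0.46 ± 0.52. Within the males of slide 1, miR-127-3p differed from control by -0.70 ± 0.55 at 600 ppm and by -0.73 ± 0.62 at 1000 ppm. None of these within-slide differences passed the threshold.

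miR-434-3p was at the floor of 3.50 in many rats. Its log2 level ran from 3.50 over a median of 3.54 to 4.21 in control rats, from 3.50 over 3.50 to 4.55 at 600 ppm, from 3.50 over 3.52 to 4.05 at 1000 ppm and from 3.50 over 3.92 to 4.99 at 1500 ppm. The high values again belonged to control male 2, 600 ppm female 27 and 1500 ppm female 37. The differences were 0.05 ± 0.22, 0.03 ± 0.22 and 0.35 ± 0.22 (SE, n = 6, limma, adjusted p of 0.996, 0.991 and 0.5). A slide block gave -0.09, -0.16 and 0.17, and the total gene signal gave 1.22 at 1500 ppm (adjusted p = 0.427). Among the females of slide 3, 1500 ppm minus 1000 ppm was 0.63 ± 0.37 (SE) for miR-434-3p. There 1500 ppm minus 600 ppm was 0.23 ± 0.42, and 1000 ppm minus 600 ppm was -0.40 ± 0.42. Within the males of slide 1, miR-434-3p differed from control by -0.24 ± 0.19 at 600 ppm and by -0.24 ± 0.21 at 1000 ppm. None of these within-slide differences passed the threshold.

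**Figure D3:**
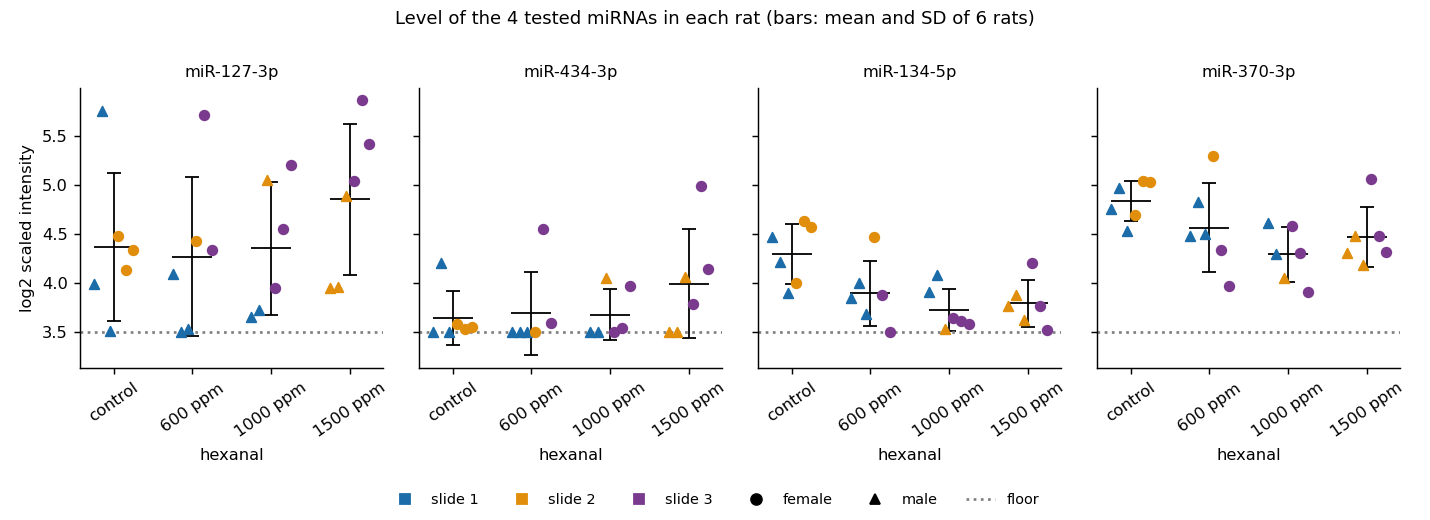
Log2 scaled intensity of miR-127-3p, miR-434-3p, miR-134-5p and miR-370-3p in each rat by dose group, with colour for the slide, shape for the sex, bars for mean and SD of 6 rats and a dotted line at the floor. All groups overlap, and the control rats of miR-134-5p lie between 3.90 and 4.63.

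**Figure D4:**
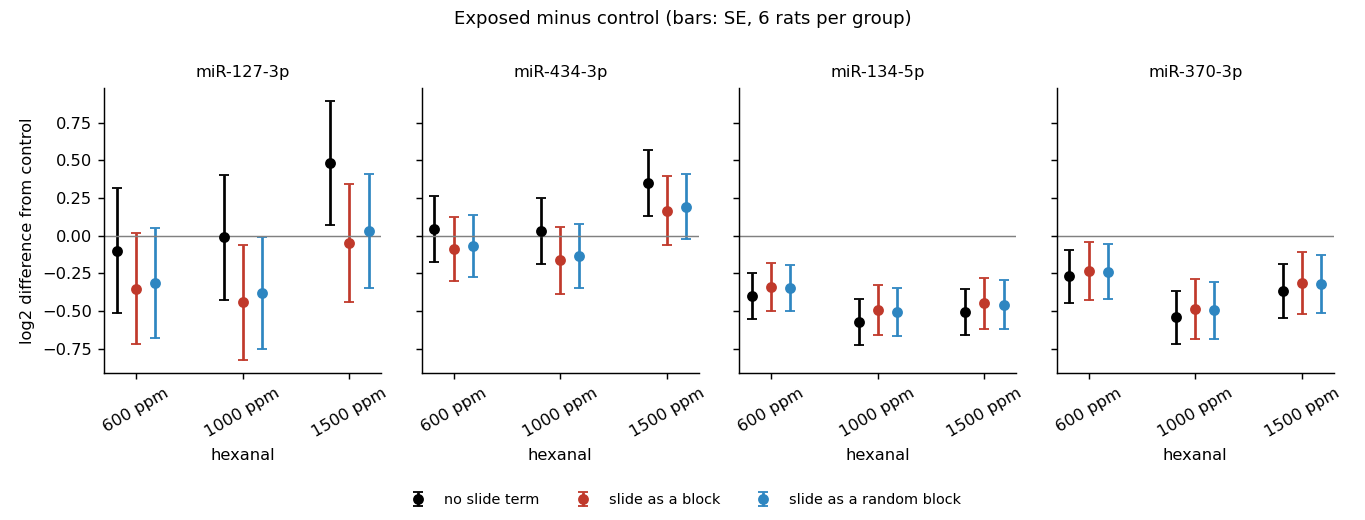
Log2 difference from control of the 4 tested miRNAs at each dose, with SE, in fits without a slide term, with slide as a block and with slide as a random block. miR-134-5p and miR-370-3p stay below 0 at every dose in the 3 fits, while miR-127-3p at 1500 ppm goes from 0.49 to -0.05.

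Neither a moderated F test over the dose groups nor a linear trend called a member. In the F test 0 of 4 members were called (0% of all tested), with 2 of 4 at an unadjusted p below 0.05 against 5.3% of all miRNAs. For the trend 0 of 4 were called (0%), with 2 of 4 unadjusted against 10.2% (6.36% with a falling slope), both with a slope below 0. The slope per 1000 ppm was -0.35 ± 0.10 for miR-134-5p (limma, adjusted p = 0.155), -0.28 ± 0.12 for miR-370-3p (0.433), 0.30 ± 0.26 for miR-127-3p (0.591) and 0.21 ± 0.14 for miR-434-3p (0.517). The median difference of the 4 members was -0.18, -0.28 and -0.01 at the 3 doses, beside 0.02, -0.01 and 0.00 over the 283 miRNAs. With no filter on dim probes, which brought the 5 other members into the fit of 719 miRNAs, 0 of 9 were called at each dose (0% of all tested), and miR-379-5p, miR-382-5p, miR-411-5p, miR-495 and miR-541-5p had no difference larger than 0.046 in size because nearly all their values were at the floor.

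Of the other arms of the region, 6 were tested and 0 called at any dose by limma, with 0, 0 and 1 of 6 at an unadjusted p below 0.05 at 600, 1000 and 1500 ppm. The 2 with the smallest p at 600 ppm were miR-667-3p (-0.19 ± 0.19) and miR-409a-3p (-0.11 ± 0.11). At 1000 ppm they were miR-487b-3p (0.22 ± 0.11) and miR-770-3p (-0.20 ± 0.12), and at 1500 ppm miR-770-3p (-0.26 ± 0.12) and miR-136-5p (0.41 ± 0.34), with limma adjusted p between 0.498 and 0.996.

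Males and females differed widely on these arrays, with 124 of 283 miRNAs called (43.8%, and 27.6% called lower in males), and of the 4 members 1 was, miR-127-3p. At an unadjusted p below 0.05 it was also the 1 member, against 51.6% of all tested. In 12 females its log2 level ran from 3.95 over a median of 4.51 to 5.86, and in 12 males from 3.50 over 3.95 to 5.75. The male range reached nearly as high as the female one through control male 2. Males were lower by a log2 difference of -0.65 ± 0.26 (SE, limma, adjusted p = 0.0489). The call was lost when any of 19 of the 24 arrays was left out (adjusted p up to 0.0909) and stood without control male 2, control female 22, 1000 ppm female 31, 1000 ppm male 13 or 1500 ppm male 18. It was also lost with slide as a block, where the difference turned to 0.37 ± 0.64 (adjusted p = 0.759) and 10 of 283 miRNAs were called (3.53%).

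The opposite held for miR-370-3p, which was not called between the sexes without a slide term but was with the slide block. The male minus female difference was -0.09 ± 0.13 without a slide term (limma, adjusted p = 0.594). It was -0.97 ± 0.25 under the slide block (adjusted p = 0.0428), where miR-134-5p gave -0.72 ± 0.23 (adjusted p = 0.104). As a random block, with an estimated correlation, slide left miR-370-3p at -0.52 ± 0.21 and the call was lost (adjusted p = 0.164). Only slide 2 held both sexes, 4 males and 4 females. There miR-370-3p averaged 4.26 in males and 5.01 in females (limma, difference -0.76 ± 0.14, adjusted p = 0.0199) and miR-134-5p 3.70 and 4.42 (-0.72 ± 0.15, adjusted p = 0.0275), while miR-127-3p averaged 4.46 and 4.35 (0.11 ± 0.27, adjusted p = 0.851). On slide 2 20 of 283 miRNAs were called (7.07%). Since 3 of its 4 males had breathed 1500 ppm and 3 of its 4 females clean air, sex and dose cannot be told apart there.

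Of the 10 arms of the region tested, 3 were called lower in males and 0 higher, where 43.8% of all tested were called (27.6% lower). Besides miR-127-3p these were miR-667-3p (-0.40 ± 0.11, limma, adjusted p = 0.00756) and miR-487b-3p (-0.18 ± 0.07, adjusted p = 0.0488). Neither passed under the slide block (-0.75, adjusted p = 0.161, and 0.05, adjusted p = 0.874). In the F test of dose by sex 0 of the 4 members were called, against 25.1% of all tested, and 0 were at an unadjusted p below 0.05, against 41.3%. The limma adjusted p ran from 0.348 for miR-434-3p to 0.799 for miR-370-3p.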

How the data were processed

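Total RNA of 24 lungs was measured on 1-colour Agilent rat miRNA arrays. The authors deposited scanner files made with Feature Extraction 11.5.1.1, whose spot intensity is, per the file headers, corrected for background and left unscaled between arrays. A deposited summary holds intensities per miRNA, and its 7125 values above 1 all equalled the total gene signal of the same array within a relative tolerance of 0.001, with the remaining 10131 set to 1. The header names another genome build, so coordinates are those of RefSeq GRCr8.

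Control and outlier spots were left out. Intensities were divided by the 75th percentile over the 394 probes above background on all arrays, multiplied by 865, floored at 11.3 (log2 3.5) and log2-transformed. Probes stayed in if well above background, by most of their spots, on 6 or more of 24 arrays, and those of a miRNA were averaged (555 probes, 283 miRNAs). On this scale a change near the floor is understated. limma 3.58.1 (R 4.3.3) fitted the dose group means of the 24 arrays together (20 residual degrees of freedom, two-sided), with Benjamini-Hochberg adjustment over 283 miRNAs and a threshold of 0.05. The sex fit held the dose group as a factor. The script was tested on simulated data. The number of arrays limits the precision.

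The alternatives were 2 other scalings, no and strict filters on dim probes, a lower floor, the brightest probe only, total gene signals, the values in the deposited table and normexp with an offset of 50, as well as slide as a block or random block, sex as a covariate, robust variances, separate fits and leaving out each array. A normexp run with extreme background spots replaced was chosen after seeing the data. All 9 members are named. Of the other arms of the region, those called were named by smallest p, up to 4, or else the 2 with the smallest p. Members and lists were chosen with earlier results of these data known.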

Additional observations from a re-analysis of the deposited data

Results flagged for a closer look

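In 6 of 40 groups of 6 rats (10 tested miRNAs of the region in 4 dose groups), 1 rat stood apart from the other 5, measured as the share of the group's whole range that separates it from its nearest neighbour, called the gap here. Chance marks about 1 in 20 such groups if they are independent. The 40 groups were not, since miR-434-3p and miR-136-5p, with a correlation of 0.93, marked the same rats. The share over all tested miRNAs was not worked out, so whether 6 of 40 is an excess was not tested. miR-434-3p was high in control male 2 (4.21 against 3.53 ± 0.04, SD, in the other 5, gap 0.882) and in 600 ppm female 27 (4.55 against 3.52 ± 0.04, gap 0.91). miR-136-5p was high in the same rats (gaps of 0.801 and 0.793). The other rats lay at or near the floor, where the floor narrows the spread. miR-370-3p was high in 1500 ppm female 36 (5.06 against 4.35 ± 0.12, gap 0.665), and miR-409a-3p in 600 ppm male 8 (4.13 against 3.63 ± 0.07, gap 0.726).

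The dose differences of miR-770-3p differed between the sexes (limma, F = 4.94, adjusted p = 0.0443), 1 of the 10 arms of the region tested, where 25.1% of all miRNAs tested were called. Its log2 level in males was 4.80 ± 0.08 in control rats and 4.37 ± 0.12 at 1500 ppm (SD, n = 3), and in females 4.68 ± 0.30 and 4.58 ± 0.13. With slide as a block F was 1.27 (adjusted p = 0.863).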

How the results depend on the processing

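The count of tested members called stayed at 0 under each alternative that gave one for 600, 1000 and 1500 ppm, any dose and the trend. For dose by sex it went from 0 to 1, miR-134-5p (limma, F = 4.88, adjusted p = 0.0403), with normexp and replaced background spots. Between the sexes it was 1, but 0 after quantile normalization, scaling to the percentile over all probes, no filter, total gene signals, the deposited table, normexp or a random slide block, and leaving out 1 array gave 0 to 1. The fixed slide block again gave 1, but another miRNA, miR-370-3p. No paired analysis was possible because each animal number occurs once in the labels. The strict filter left no member to test.

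None of the differences that changed sign passed the threshold under the alternative. For rno-miR-127-3p the 1000 ppm value was 0.0063 scaled to all probes, 0.032 by quantile normalization, 0.022 at the lower floor, 0.024 by total gene signal and 0.080 in the deposited table, and under the slide block the 1500 ppm value was -0.048 and the sex value 0.37. For rno-miR-434-3p the 600 ppm value was -0.036 at the lower floor, -0.088 under the slide block and -0.069 under the random block. Its 1000 ppm value was -0.16 and -0.13 under these blocks, and its sex value 0.27 and 0.031. Between the sexes rno-miR-134-5p gave 0.0034 by quantile normalization, 0.048 at the lower floor, 0.63 by total gene signal and 0.70 in the deposited table, rno-miR-370-3p 0.025 and 0.12 by the last 2, and rno-miR-487b-3p 0.040 in the deposited table and 0.053 under the slide block.

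Normexp gave 600 ppm values of 0.33 for rno-miR-127-3p, 0.27 for rno-miR-134-5p, 0.27 for rno-miR-370-3p, 0.35 for rno-miR-409a-3p and 0.33 for rno-miR-667-3p, and -0.086 for rno-miR-434-3p at 1000 ppm. The median spot was then at 733 on the array of 600 ppm female 26 and at 119 on that of control male 3, the 2 arrays with spots whose background exceeded their brightness by over 100, and at most at 66.3 elsewhere. With those spots replaced, the 1500 ppm values were 0.028 for rno-miR-134-5p, 0.053 for rno-miR-370-3p and 0.057 for rno-miR-770-3p, and rno-miR-434-3p was at -0.019 for 600 and -0.028 for 1000 ppm. Over the arrays left out in turn, rno-miR-127-3p ranged from -0.39 to 0.18 (600 ppm) and from -0.18 to 0.26 (1000 ppm), rno-miR-434-3p from -0.13 to 0.16 (600 ppm) and from -0.041 to 0.15 (1000 ppm), and the sex value of rno-miR-134-5p from -0.083 to 0.019. The cause of these sign changes was not tested. Signal over background limits the 5 untested members, whose dose differences could not be measured, and slides overlap with sex and dose.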
